A study of Homo sapiens with 7 samples.

Results

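The genes of the amino acid response, of amino acid transport and of tRNA charging were compared between 4 libraries given PTH (parathyroid hormone) and 3 libraries given PBS. The members are the aminoacyl-tRNA synthetase genes whose symbols end in ars or ars2, the Slc7, Slc38 and Slc1 transporter genes except Slc7a11, and 17 named regulators and enzymes of the response governed by the transcription factor ATF4. They were chosen by symbol, in subgroups, and not by a cut on their values, though earlier results of these data were known. The rule found 80 genes of 21780 symbols in the tables, and Aldh18a1, which has 2 rows, was represented by the row with the higher mean.

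All 7 samples are labelled LX2, an established line of human hepatic stellate cells, and differ in the labels only by PTH or PBS. The PBS libraries are titled con1, con2 and con3 by the submitters and are numbered here in the same way. The labels used here state no dose or time of PTH and do not say that the libraries were grown as separate cultures, so the p-values below measure the spread between libraries, which may be technical. Every row carries a rat Ensembl identifier although the labels name a human line and the submitters' processing notes a mouse genome build, mm8. Which species the cells came from was not settled here. Rat symbols are used, and the promoters and GC contents below rest on matching these symbols to human genes. The levels are FPKM (fragments per kilobase of transcript, scaled to all mapped fragments) as the authors deposited them, with no read counts, so the depth behind a value is unknown. Of 10 stellate cell markers, 9 averaged at least 1 FPKM and Lrat was listed at 0 in all libraries. Some of the 9 were low. Acta2 lay at 0.918 to 2.03 FPKM with PTH and 0 to 1.80 FPKM with PBS. Pdgfrb lay at 2.72 to 2.90 FPKM with PTH and 2.18 to 2.54 FPKM with PBS. Des lay at 4.92 to 7.66 FPKM with PTH and 4.88 to 5.71 FPKM with PBS. Vim, Timp1, Col1a1, Col3a1, Spp1 and Lox were above 70 FPKM in every library. The hepatocyte markers Alb and Ttr, the leukocyte marker Ptprc and the endothelial marker Kdr were at 0 in all libraries. Of the other-cell markers, Cd14 lay at 12.5 to 16.7 FPKM with PTH and 13.9 to 19.7 FPKM with PBS, and Krt19 at 3.59 to 6.88 FPKM with PTH and 6.37 to 8.41 FPKM with PBS. Mitochondrially encoded mRNAs took 0.867 to 3.61% of the summed FPKM with PTH and 5.78 to 5.90% with PBS, and the calls after rescaling without these mRNAs are given with the counts below.

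Cells short of amino acids accumulate uncharged tRNA, which activates the kinase GCN2. Phosphorylation of eIF2 then lowers general translation while ATF4 is translated more, and ATF4 raises genes for amino acid synthesis, uptake and tRNA charging. Because ATF4 is controlled at translation, its protein can change without its mRNA, and the transcripts of its targets are the usual readout. In fibrogenic cells serine, glycine and proline feed collagen synthesis.

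As a group these genes were called about as often as genes at large. Of the 80 members 64 averaged at least 1 FPKM over the 7 libraries and were tested, 5 lay above 0 but under that limit, and 11 were listed at 0 throughout. At an adjusted p under 0.05 in limma (Benjamini-Hochberg over 10662 genes), 3 of the 64 rose and 5 fell. Over all tested genes 3.45% rose and 7.96% fell, 11.4% in all, and the 8 members are 12.5% of those tested. The median log2 fold change (PTH minus PBS, on log2(FPKM + 1)) was -0.01 for the members and -0.04 for all tested genes. The PTH values lay wholly above the PBS values in 10 members and wholly below them in 12, or 15.6% and 18.8%, where the background was 12.7% and 20.8%. These shares are near the background, so the counts are no result about the members as a group. After other scalings the split of the calls was 4 higher and 3 lower (median centring), 5 and 4 (quantile normalization) and 4 and 2 (rescaled without mitochondrial mRNAs). Over all tested genes the shares higher and lower were then 5.6% and 5.2%, 6.2% and 5.4%, and 5.5% and 5.3%, in the same order. The share higher grew and the share lower shrank over all genes too, so this shift was not particular to the members.

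**Figure D1:**
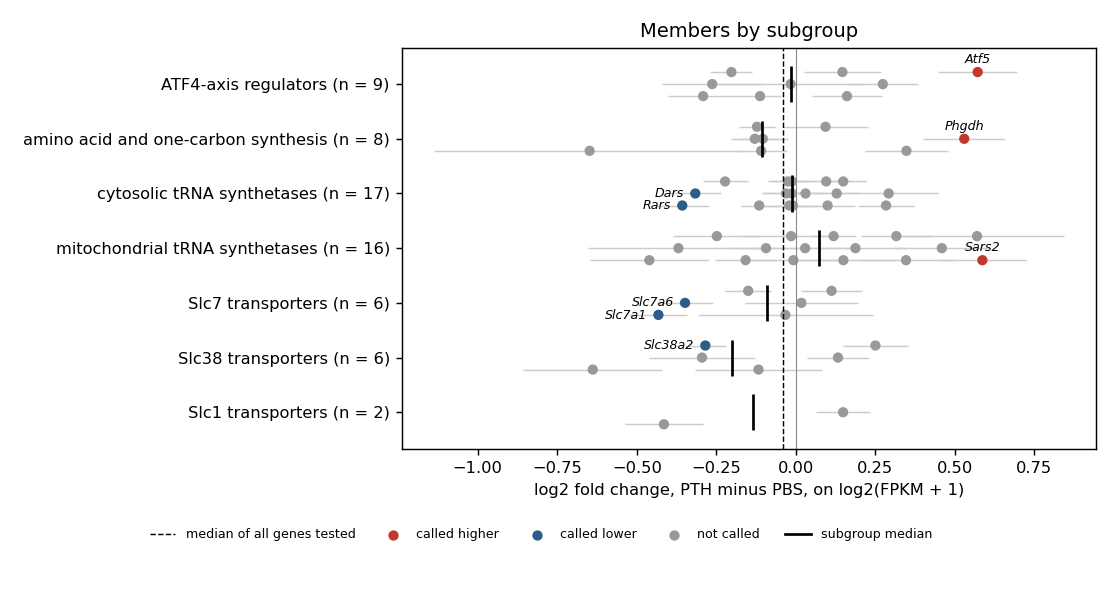
Log2 fold change (PTH minus PBS, on log2(FPKM + 1)) of the 64 tested members, by subgroup. Points are genes with their standard error, thick lines are subgroup medians, the dashed line is the median of all 10662 tested genes at -0.04, and the 3 genes called higher and 5 called lower are coloured and named.

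The regulators came first, and only Atf5 passed among the 9. Atf5, a bZIP factor of the same stress response, stood at 57.8, 46.6, 44.5 and 43.5 FPKM in PTH libraries 1 to 4, against 34.6, 27.3 and 34.2 FPKM in PBS libraries 1 to 3. The groups did not overlap, and PTH library 1 was the highest. It rose by a log2 fold change of 0.57 ± 0.12 (SE), with an adjusted p of 0.0352 in limma and between 0.00414 and 0.136 over the alternatives.

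Atf4 itself did not pass. It held 424, 407, 395 and 369 FPKM with PTH, against 430, 415 and 447 FPKM with PBS, and the groups overlapped (log2 fold change -0.11, limma adjusted p of 0.271). Its values were the highest of the regulators in both groups. Ddit3, which encodes the stress factor CHOP, lay at 91.3, 97.3, 84.1 and 75.6 FPKM with PTH and at 72.9, 71.3 and 89.3 FPKM with PBS (log2 fold change 0.16, limma adjusted p of 0.333). Trib3, a pseudokinase that feeds back on ATF4, lay at 20.1, 20.1, 17.4 and 14.9 FPKM with PTH and at 15.9, 17.5 and 15.2 FPKM with PBS (0.15, adjusted p of 0.420). Both genes overlapped between groups, and PTH library 4 was the lowest of its group for each, as it was for Atf4. Atf3, a stress-induced repressor, lay at 14.7, 15.6, 18.8 and 14.0 FPKM with PTH and at 18.3, 20.7 and 19.3 FPKM with PBS (-0.29, adjusted p of 0.112). Chac1, which breaks down glutathione, lay at 17.4, 23.5, 22.2 and 20.6 FPKM with PTH and at 15.8, 17.4 and 18.1 FPKM with PBS. Its log2 fold change was 0.27, with an adjusted p of 0.129, and 0.35 with an adjusted p of 0.0399 without PTH library 1, within 0.00279 to 0.574 over the alternatives. The remaining regulators were not called. Ppp1r15a, the eIF2 phosphatase subunit that ends the response, averaged 62.6 ± 1.42 FPKM with PTH and 72.3 ± 4.95 FPKM with PBS (SD, n = 4 and n = 3), without overlap and with a limma adjusted p of 0.0771. Ddit4, an inhibitor of mTORC1, and Cebpb, a partner of ATF4, had log2 fold changes of -0.26 and -0.02 and overlapped.

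The element through which ATF4 and C/EBP factors act on their targets, TGATGNAA, was looked for in the promoters of the human counterparts, 250 bases before to 50 after the gene start, on both strands (RefSeq, GRCh38.p14). A promoter was matched for 63 of the 80 members. The letters occurred in 13 of these 63 (20.6%) and in 2.53% of 15843 promoters of protein-coding genes. The cAMP response element TGACGTCA, named here because PTH acts through cAMP, occurred in 1 of the 63, that of PPP1R15A, and in 2.59% of all promoters. The stretches below, from tested members, are shown because they hold the letters, in capitals, and lie wholly before the gene start. They run 5′ to 3′ on the gene's strand, so that an element on the opposite strand reads as its reverse complement.
ASNS, chr7:97872443-97872502, minus strand: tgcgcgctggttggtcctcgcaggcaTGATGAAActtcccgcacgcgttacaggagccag
CHAC1, chr15:40953236-40953295, plus strand: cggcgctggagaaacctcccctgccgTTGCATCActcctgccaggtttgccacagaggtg
ATF3, chr1:212565190-212565249, plus strand: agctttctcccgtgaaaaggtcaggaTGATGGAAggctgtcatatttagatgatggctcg
AARS1, chr16:70289660-70289719, minus strand: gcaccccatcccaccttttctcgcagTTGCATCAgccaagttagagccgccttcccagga
YARS2, chr12:32756061-32756120, minus strand: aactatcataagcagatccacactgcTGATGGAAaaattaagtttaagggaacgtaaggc
The other matches were in SLC1A3, whose rat counterpart was too low to test, and near or after the start of SLC38A1, SLC7A1, CARS1, IARS1, MARS1, NARS1 and TARS1. Of the 12 tested members with the letters 1 was called, Slc7a1, which fell, and their median log2 fold change was -0.02. Among the 41 tested members with a matched promoter but without the letters in it 6 were called, with a median of -0.02. Letters farther from the gene start were not looked for. Of all tested genes 11.4% were called, and whether the letters go with a change was not tested.

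Among the 8 enzymes of amino acid and one-carbon synthesis, Phgdh rose and no other passed. Phgdh, which opens serine synthesis from a glycolytic intermediate, stood at 114.5, 85.3, 102.9 and 77.8 FPKM with PTH, against 65.0, 62.2 and 67.4 FPKM with PBS. Every PTH library was above every PBS library, and PTH libraries 1 and 3 were the highest. The log2 fold change was 0.53 ± 0.13 (SE) with an adjusted p of 0.0405 in limma, and between 8.80e-04 and 0.159 over the alternatives. The next steps of the pathway were not called. Psat1, the aminotransferase after Phgdh, lay at 40.0, 46.6, 47.6 and 47.5 FPKM with PTH and at 50.0, 50.9 and 46.1 FPKM with PBS (log2 fold change -0.11, adjusted p of 0.379). Psph, the last enzyme, averaged 42.7 ± 8.30 FPKM with PTH and 39.4 ± 1.39 FPKM with PBS (SD, n = 4 and n = 3), with PTH library 1 at 54.5 FPKM. Asns, which makes asparagine and is a standard ATF4 target, lay at 53.0, 63.1, 55.9 and 56.0 FPKM with PTH and at 60.1, 65.0 and 58.6 FPKM with PBS (-0.10, adjusted p of 0.375). Whether the change of Phgdh differed from that of Psat1, Psph or Asns was not tested. The mitochondrial one-carbon enzymes Shmt2 and Mthfd2 had log2 fold changes of -0.13 and -0.12. The proline enzymes pointed opposite ways without a call, Pycr1 at 12.2 ± 0.695 FPKM with PTH and 9.49 ± 1.98 FPKM with PBS, and Aldh18a1 at 1.48 to 7.57 FPKM with PTH and 4.25 to 13.4 FPKM with PBS.

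**Figure D2:**
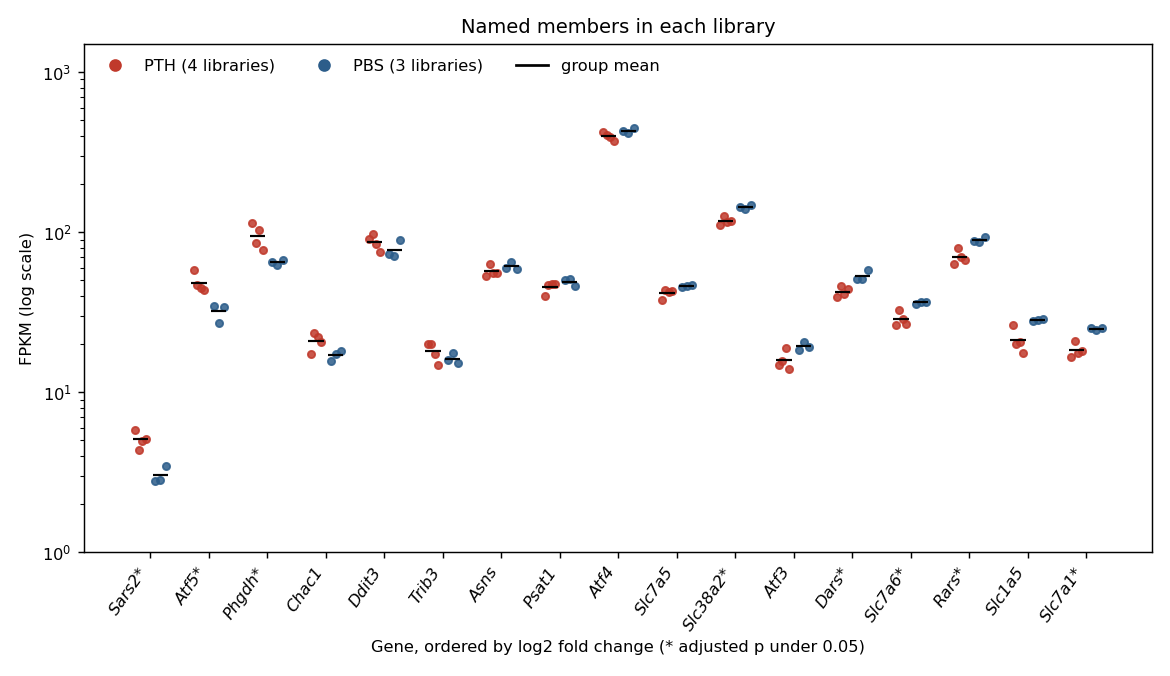
FPKM (log axis) of the 17 named members in each library, ordered by log2 fold change from Sars2 to Slc7a1. Red points are the 4 PTH libraries, blue points the 3 PBS libraries, bars the group means, and asterisks mark the 8 genes called in limma, whose groups do not overlap.

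Among the transporters 3 of 14 tested genes fell and 0 rose in limma, where 7.96% and 3.45% of all tested genes did. The calls of Slc38a2 and Slc7a6 ended after the correction for GC content given further on. At an unadjusted p under 0.05 there were 5 transporters on the lower side and 1 on the higher side, where all tested genes had 21.7% and 12.2%. Slc7a1, which encodes the arginine and lysine carrier CAT1, stood at 16.6, 20.9, 17.7 and 18.0 FPKM with PTH, against 25.2, 24.5 and 25.1 FPKM with PBS. The PBS libraries lay close together and above all PTH libraries. It fell by 0.43 ± 0.09 (SE) on the log2 scale, with an adjusted p of 0.0334 in limma, and between 4.96e-04 and 0.157 over the alternatives. Slc7a6, which encodes the exchanger y+LAT2 for cationic and neutral amino acids, stood at 26.2, 32.5, 28.8 and 26.5 FPKM with PTH, against 35.8, 36.7 and 36.9 FPKM with PBS. It fell by 0.35 ± 0.09 (SE), with an adjusted p of 0.0439 in limma, and between 0.00136 and 0.164 over the alternatives. Slc38a2, which encodes SNAT2, the carrier of small neutral amino acids that cells raise when starved of them, stood at 111.6, 127.0, 116.2 and 118.3 FPKM with PTH, against 144.7, 139.4 and 148.3 FPKM with PBS. It fell by 0.28 ± 0.06 (SE), with an adjusted p of 0.0370 in limma, and between 6.61e-04 and 0.834 over the alternatives. In all of these transporters PTH library 2 was the PTH library nearest to the PBS values.

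The glutamine carrier gene Slc1a5 (ASCT2) just missed the threshold. It lay at 26.2, 19.9, 20.6 and 17.7 FPKM with PTH and at 27.8, 28.2 and 28.6 FPKM with PBS, without overlap. The log2 fold change was -0.41 ± 0.12 (SE) with an adjusted p of 0.0608 in limma. PTH library 1 was the closest to PBS, and without it the log2 fold change was -0.52 with an adjusted p of 0.0150, within 0.00115 to 0.186 over the alternatives. Slc7a5, which encodes the leucine carrier LAT1, lay at 37.5, 43.4, 42.0 and 43.0 FPKM with PTH and at 45.6, 45.9 and 46.6 FPKM with PBS (-0.15, adjusted p of 0.179). The groups did not overlap, but the gap was small beside the range of the PTH libraries. The other tested carriers were not called, and their log2 fold changes ran from -0.64 for Slc38a6 to 0.25 for Slc38a10. Slc38a9, the lysosomal arginine sensor for mTORC1, averaged 1.98 ± 0.596 FPKM with PTH and 2.21 ± 0.463 FPKM with PBS (SD, n = 4 and n = 3). Of the 29 transporter genes 11 were listed at 0 in all libraries: Slc7a2, Slc7a4, Slc7a10, Slc7a12, Slc7a13, Slc7a14, Slc7a15, Slc38a4, Slc38a5, Slc38a11 and Slc1a1. A listed 0 does not show that the transcript was absent.

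Cytosolic synthetases, which charge tRNAs for general translation, ranged from Iars at 25.7 FPKM with PTH and 25.9 FPKM with PBS to Aars at 224 FPKM with PTH and 202 FPKM with PBS. They were grouped by a symbol ending in ars, and Gars and Kars among them serve both compartments. Of the 17, Rars and Dars fell. Rars, which charges arginine tRNA, stood at 63.1, 79.1, 70.3 and 67.1 FPKM with PTH, against 88.0, 86.9 and 93.8 FPKM with PBS. It fell by 0.36 ± 0.08 (SE) on the log2 scale, with an adjusted p of 0.0391 in limma, and between 9.28e-04 and 0.158 over the alternatives. Dars, the aspartate enzyme, stood at 39.4, 45.9, 40.8 and 43.9 FPKM with PTH, against 50.9, 50.9 and 57.7 FPKM with PBS. It fell by 0.32 ± 0.08 (SE), with an adjusted p of 0.0452 in limma, and between 0.00266 and 0.245 over the alternatives. Neither gene overlapped between groups, and PTH library 2 was again nearest to PBS. The other 15 were not called. Yars, the tyrosine enzyme, was nearest on the higher side, at 129 to 166 FPKM with PTH and 116 to 122 FPKM with PBS (log2 fold change 0.28, adjusted p of 0.0676). Wars, the tryptophan enzyme, was nearest on the lower side, at 42.4 to 49.1 FPKM with PTH and 52.3 to 54.9 FPKM with PBS (-0.22, adjusted p of 0.0720). Several abundant enzymes were close to equal: Gars averaged 149 ± 2.37 FPKM with PTH and 149.7 ± 2.25 FPKM with PBS (SD, n = 4 and n = 3), and Kars had a log2 fold change of -0.02.

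Mitochondrial synthetases, encoded in the nucleus, were lower in level, with a median of 6.18 FPKM with PTH and 5.23 FPKM with PBS over 16 tested genes, against 97.4 FPKM with PTH and 89.6 FPKM with PBS over the cytosolic ones. Sars2, the mitochondrial serine enzyme, was the only one called. It stood at 5.84, 4.35, 4.94 and 5.13 FPKM with PTH, against 2.79, 2.83 and 3.48 FPKM with PBS, a ratio of the means of 1.67. The groups did not overlap. It rose by 0.59 ± 0.14 (SE) on the log2 scale, with an adjusted p of 0.0391 in limma, and between 0.00135 and 0.166 over the alternatives. Aars2, Nars2 and Yars2 also had all PTH values above all PBS values, with log2 fold changes of 0.32, 0.35 and 0.46, and were not called. With Sars2 that made 4 of the 16 wholly above and 0 wholly below, where 12.7% and 20.8% of all tested genes were. On the lower side Rars2, Ears2 and Wars2 had log2 fold changes of -0.46, -0.37 and -0.25, overlapped between groups and were not called either. Mars2 was too low to test, at up to 0.178 FPKM with PTH and up to 0.386 FPKM with PBS.

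For 13 amino acids both enzymes could be set side by side within a library. The cytosolic transcript exceeded the mitochondrial one in all libraries of every pair but isoleucine, with mean ratios from 1.01 for isoleucine to 42.8 for asparagine with PTH and from 1.10 to 66.0 with PBS. In the serine pair the ratio was 31.1 ± 5.46 with PTH and 50.4 ± 5.07 with PBS (SD, n = 4 and n = 3). The PTH ratios lay wholly below the PBS ratios in the serine, asparagine and aspartate pairs, wholly above them in the histidine pair, and overlapped in the other 9. No share over other gene pairs was computed, so this count is a description only. The aspartate ratio was 7.34 ± 0.922 with PTH and 10.5 ± 2.21 with PBS, and the histidine ratio 9.23 ± 0.491 with PTH and 7.68 ± 0.799 with PBS.

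**Figure D3:**
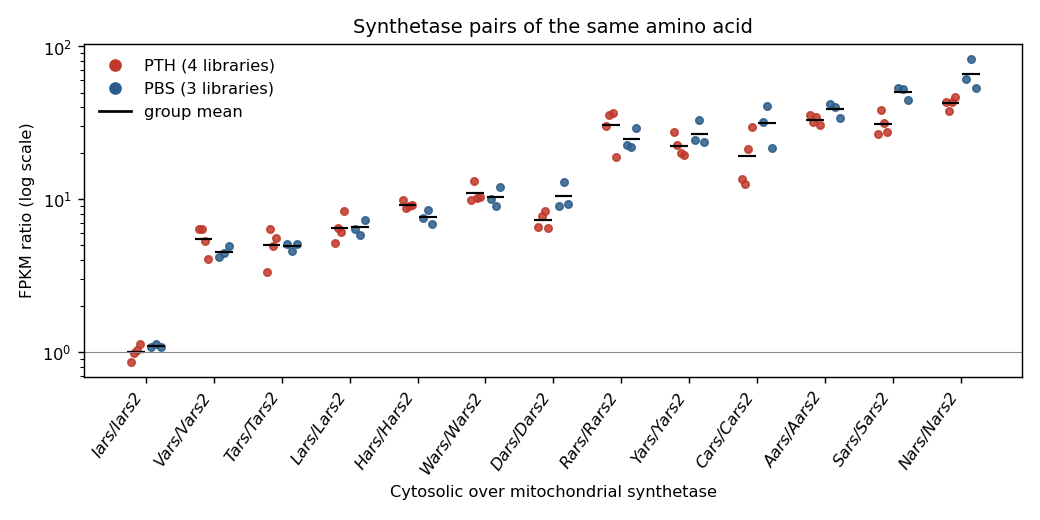
Ratio of the FPKM of the cytosolic synthetase to that of the mitochondrial synthetase of the same amino acid (log axis), for 13 pairs in each library. Red points are the 4 PTH libraries, blue points the 3 PBS libraries and bars the group means. Isoleucine is near 1 in both groups, and the PTH points of the serine, asparagine and aspartate pairs lie below the PBS points.

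Members with GC-rich transcripts tended to have higher log2 fold changes than members with GC-poor ones, as did genes at large. Across 64 members the Spearman correlation of the log2 fold change with the GC content of the matching human transcript was 0.46, and across 9433 genes it was 0.47 (genes are not independent replicates and share the same 7 libraries). The 3 members that rose had a median GC content of 60.0%, and the 5 that fell one of 41.4%. After a correction for GC content, added after the data had been seen, the log2 fold change of Slc38a2 was -0.02 (adjusted p of 0.834), that of Dars -0.11 (0.245), that of Rars -0.16 (0.0914) and that of Slc7a6 -0.26 (0.0518), and these calls ended. Phgdh, Atf5, Sars2 and Slc7a1 kept log2 fold changes of 0.45, 0.47, 0.46 and -0.44 with adjusted p of 0.0240, 0.0243, 0.0485 and 0.0285 in limma. Slc1a5 was called lower after the correction, at -0.54 with an adjusted p of 0.0100. Ppp1r15a was then called lower as well, at -0.29, and Iars2 and Yars higher, at 0.27 and 0.24.

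**Figure D4:**
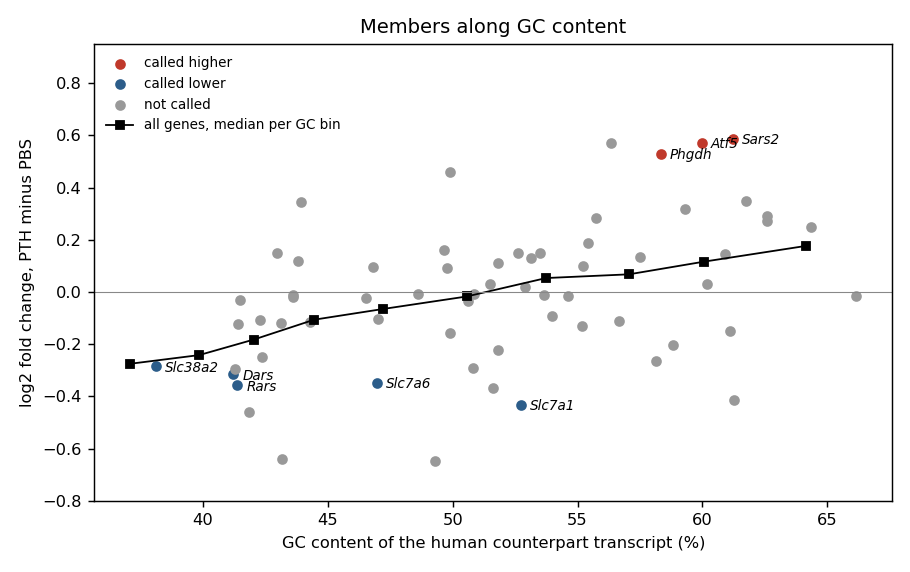
Log2 fold change (PTH minus PBS) of the 64 tested members against the GC content of the matching human transcript (%). Squares are the medians of all genes in 10 equal bins by GC content, which run from -0.28 in the lowest to 0.18 in the highest bin. The 3 members called higher lie at the GC-rich end, and Slc38a2, Dars and Rars at the GC-poor end. Slc38a2 lies near the line of all genes, and Dars and Rars lie below it.

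The 8 calls depended on which libraries were used. When PTH library 3 or any single PBS library was left out, 0 of the 8 were still called. Without PTH library 4, 1 was (Phgdh), without PTH library 1, 6 were, and without PTH library 2 all 8 were. Their direction stayed the same in each of these fits. In the exact permutation test over the 35 assignments each had a two-sided p of 0.0571, the smallest it can give. The authors' deposited table gives all 8 an FDR under 0.05, and likewise Slc1a5, Yars, Slc38a10 and Aldh18a1, which limma did not call.

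PTH library 1 was either the highest or the lowest of the PTH libraries in 47 of the 64 members (73.4%), and in 69.5% of all tested genes. It also had the lowest share of mitochondrial mRNA, 0.867%. The members together made up 0.718, 0.666, 0.690 and 0.671% of the summed FPKM in PTH libraries 1 to 4, against 0.642, 0.648 and 0.646% in PBS libraries 1 to 3. Without mitochondrial mRNAs in the sum, the shares were 0.724, 0.691, 0.707 and 0.692% with PTH and 0.682, 0.688 and 0.686% with PBS. The full sum ran from 472621 to 509859 FPKM with PTH and from 519845 to 532909 FPKM with PBS. A higher share therefore does not by itself show higher levels of the members. In bulk libraries, fewer cells of a kind and less RNA per cell cannot be told apart.

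Among 61 tested genes of other parts of the pathway, listed by role, 2 rose and 8 fell, where 3.45% and 7.96% of all tested genes did. Leaving out 1 library gave 0 to 4 higher and 0 to 15 lower, with 0 and 0 without PBS library 1 or 2. Of 14 further ATF4 targets, Sesn2, a leucine sensor that restrains mTORC1, rose to 21.9 ± 1.72 FPKM with PTH, against 16.8 ± 0.437 FPKM with PBS (SD, n = 4 and n = 3; limma adjusted p of 0.0391). It was called in 9 of 17 other settings. Of the 17 settings 7 leave out a single library, and Sesn2 was called in 2 of those 7. It was not called without the variance trend, with the replicate number as a block or after the GC correction. Xpot, the nuclear exporter of tRNAs, fell by 0.37 on the log2 scale (adjusted p of 0.0473). It was called in 5 of the 17, and not after median centring, quantile normalization, rescaling without mitochondrial mRNAs or the GC correction. Of 15 eIF2 kinases and eIF2 factors Eif2ak2, the RNA-activated kinase PKR, fell by 0.42, and Eif2b2 rose by 0.31, while Eif2ak4, which encodes GCN2, averaged 6.69 FPKM with PTH and 6.64 FPKM with PBS and was not called. Eif2ak2 was called in 7 of the 17 settings, and not after quantile normalization, rescaling or the GC correction, and Eif2b2 in 9. Of 19 genes that signal amino acids to mTORC1, 5 fell and 0 rose, where 7.96% of all tested genes fell. The median log2 fold change of the 19 was 0.01, and 10 lay above 0. Those that fell were the Ragulator subunit genes Lamtor5, Lamtor3 and Lamtor2, the Rag GTPase gene Rraga and Sar1b, with log2 fold changes of -0.67, -0.55, -0.47, -0.42 and -0.60, called in 14, 8, 5, 6 and 11 of the 17 settings. This count was 3 lower after median centring, and 4 lower and 1 higher after the GC correction. It was 0 lower without PBS library 1 or 2 and 1 lower without PBS library 3 or PTH library 3 or 4. Of 7 synthetase partners and further synthetases 1 fell, the scaffold gene Eef1e1, by 0.72, called in 12 of the 17. Limma called 0 of 6 genes of other amino acid transporter families, with 2 at an unadjusted p under 0.05.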

How the data were processed

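The authors deposited FPKM per gene and library in tables of higher and lower genes, with their own p-value and FDR, per the file headers. The submitters' processing notes list Bowtie 0.12.2 and the mouse build mm8; how the FPKM were computed, and on which annotation, is not stated in them. No coordinates of the tables were used.

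The tables were joined, and the row with the highest mean was kept per symbol. The 10662 genes averaging 1 FPKM or more were tested on log2(FPKM + 1), which understates changes of low genes, with limma 3.58.1 in R 4.3.3: PTH against PBS, variance trend, two-sided, Benjamini-Hochberg over all tested genes, called at an adjusted p under 0.05. This was tested on simulated data. Members and lists were chosen with earlier results of these data known. Named were all called members, the tested member with the smallest p in subgroups without a call, and 11 core genes. Yars, Wars, Ppp1r15a, Psph, Pycr1 and the other members named above were chosen after their values were seen, as were the genes named from the other pathway lists. GC content is that of the longest protein-coding transcript of the human gene with the same symbol in GENCODE v29, found for all 64 tested members. A loess curve on it was subtracted per library. Permutation p-values are 2 times the smaller tail. FPKM carry no depth, so no counting intervals are given.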

Additional observations from a re-analysis of the deposited data

Results flagged for a closer look

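Among the 17 named members, 1 had a PTH library far from the others. Psat1 stood at 40.0 FPKM in PTH library 1 and at 46.6 to 47.6 FPKM in the other PTH libraries, a gap over range of 0.865, against 46.1 to 50.9 FPKM with PBS. For a single gene chance gives such a gap in about 1 in 20 groups.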

How the results depend on the processing

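With 3 members higher and 5 lower as the reported counts, 17 other settings were tried, the GC correction being added after the data had been seen. Higher members numbered 1 without a filter on low values, 5 after quantile normalization, 1 without the variance trend, 13 with sample quality weights, and 5 after GC correction. Lower members numbered 3 without a filter, 3 after median centring, 2 after rescaling without mitochondrial mRNAs, 1 without the variance trend, 19 with sample quality weights, and 3 after GC correction. Without a filter 1.45% of the members were higher and 4.35% lower, against 1.58% and 4.13% of all tested genes. Without the variance trend the shares were 1.56% and 1.56%, against 1.73% and 4.14%. After GC correction they were 7.81% and 4.69%, against 5.52% and 5.19%. Leaving out 1 library gave 0 to 5 higher and 0 to 6 lower members. Over all genes the calls then ran from 3 higher and 25 lower without PBS library 1 to 828 and 1924 without PTH library 2. Of 288 values of the 17 named members under these settings 287 kept their sign, and Psat1 reversed to 0.0714 after GC correction. With sample quality weights 20.3% of the members were called higher and 29.7% lower, against 18.4% and 30.4% of all tested genes. Why calls were lost without single libraries was not tested.

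Same-numbered libraries of the groups did not deviate together (correlations across genes of -0.007, 0.001 and -0.04 for numbers 1 to 3), and not every library correlated best with its own number. They share only a number. With the replicate number as a block and PTH library 4 left out, 0 members were higher and 0 lower, against 1 and 0 without the block on the same libraries. FPKM without counts do not show how deeply the low mitochondrial synthetases were measured.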

Other observations

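Several cytosolic synthetases sit in one multisynthetase complex with scaffold proteins. Of its 11 genes, a list chosen after the values were seen, 3 fell and 0 rose, where 7.96% of all tested genes fell, and the median log2 fold change of the 11 was -0.01. After GC correction Rars (-0.16, limma adjusted p of 0.0914) and Dars (-0.11, 0.245) were not called. Besides Rars and Dars the gene that fell was Eef1e1, a scaffold subunit also called AIMP3, at 12.8 ± 2.58 FPKM with PTH and 21.4 ± 1.78 FPKM with PBS (SD, n = 4 and n = 3; log2 fold change -0.72, limma adjusted p of 0.0347). The remaining synthetases of the complex, Eprs, Iars, Kars, Lars, Mars and Qars, had log2 fold changes between -0.03 and 0.10, and the scaffolds Aimp1 and Aimp2 had 0.07 and 0.00.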
